A study of Mus musculus with 10 samples.

Results

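The genes described here are 8 transcripts that mark lipid-associated and osteoclast-like macrophages: *Gpnmb*, *Spp1*, *Trem2*, *Acp5*, *Dcstamp*, *Ocstamp*, *Lgals3* and *Lgals1*. They were taken by gene symbol, and each matched 1 entry among the 25233 entries with a symbol. The libraries came from hepatic stellate cells (HSCs) of male C57BL/6J mice, sorted from liver by density gradient and cytometry. Hypertrophied HSCs (hypHSCs, 5 libraries) were taken from mice on CDAHFD, a choline-deficient, low-methionine high-fat diet. For hypHSC 1 and 2 the diet lasted 13 weeks and the mice were 19 weeks old, and for hypHSC 3, 4 and 5 it lasted 12 weeks and they were 18 weeks old. Quiescent HSCs (qHSCs, 5 libraries) were taken from mice on standard diet, 36 weeks old for qHSC 1, 2 and 5 and 34 weeks old for qHSC 3 and 4. hypHSCs were gated on green fluorescence and qHSCs on blue fluorescence, and the digestion of the liver differed too, so diet, age, digestion and gate cannot be told apart. Each library is a preparation, and the mouse behind it is not given, so p-values measure the spread between preparations.

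Lipid-associated macrophages gather around lipid-laden or dying cells. They take up lipid and carry the receptor TREM2, which signals through the adaptor encoded by *Tyrobp*. They share part of their programme with osteoclasts, the multinucleated cells that resorb bone. *Gpnmb* encodes a glycoprotein of lysosomes and the cell surface, *Spp1* the secreted phosphoprotein osteopontin, and *Acp5* tartrate-resistant acid phosphatase. *Dcstamp* and *Ocstamp* encode membrane proteins needed for the fusion of osteoclast precursors, and *Lgals3* and *Lgals1* encode galectins, which bind β-galactosides. Galectin-1 is also made by mesenchymal cells.

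The labelled cell type was compared with marker genes. All 13 markers of quiescent stellate cells, such as *Lrat* and *Reln*, were lower in hypHSCs, with a summed level of 23762 to 53586 normalized counts (reads divided by the size factor of the library) against 971580 to 1425212 in qHSCs. All 12 core macrophage markers, such as *Lyz2* and *C1qb*, were higher, with a sum of 893936 to 1311681 in hypHSCs against 5614 to 103723 in qHSCs. In hypHSCs most of this sum was *Lyz2*, at 740305 to 940344. The groups overlapped for *Adgre1*, *Csf1r*, *C1qa* and *C1qb*, and *C1qb* had 23755 in hypHSC 5 and 33640.5 in qHSC 4. No core macrophage marker was at 0 in any hypHSC library, and *Itgam* was at 0 in qHSC 5. Among qHSCs the sum was 48851 in qHSC 1 and 103723 in qHSC 4, but at most 10995 in the other 3. The part of these macrophage transcripts in the values that follow was not tested, and in bulk libraries fewer cells of a type and less RNA per cell cannot be told apart. Libraries held 30534719 to 43283589 reads on symbol entries in hypHSCs and 35640104 to 47317028 in qHSCs, and the detection floor was set at 3 reads, that is 2.25 to 4.54 normalized counts. Such floors cover counting error only.

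The 8 genes together took 1.18% to 1.96% of the reads on symbol entries in hypHSCs, and 0.0377% to 0.102% in qHSCs. A gene was called when its log2 fold change was at least 1 in size and its adjusted p at most 0.05 (limma, Benjamini-Hochberg over 14630 genes that reached 10 normalized counts in 5 or more libraries). *Ocstamp* fell under this filter. The other 7 were called higher in hypHSCs, where 39.5% of all genes tested were called, 17.8% higher and 21.7% lower. Their groups did not overlap, as was the case for 39.5% of all genes tested. *Dcstamp*, with no read in qHSCs, and *Gpnmb*, *Spp1* and *Trem2*, which reached 10 normalized counts in only 4 qHSC libraries, passed the filter only through their hypHSC values. A gene with no read in qHSCs had to differ to pass, which holds for *Dcstamp* alone. *Gpnmb*, *Spp1* and *Trem2* did not have to differ, but they too needed hypHSC values to pass. These counts, and the calls, ranks and p-values of these 4 genes, therefore describe them and are no support. *Acp5*, *Lgals3* and *Lgals1* reached 10 in all 5 qHSC libraries. For each of the 7 the exact two-sided permutation test over libraries gave p = 0.00794, the smallest that 5 libraries against 5 can give.

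**Figure D1:**
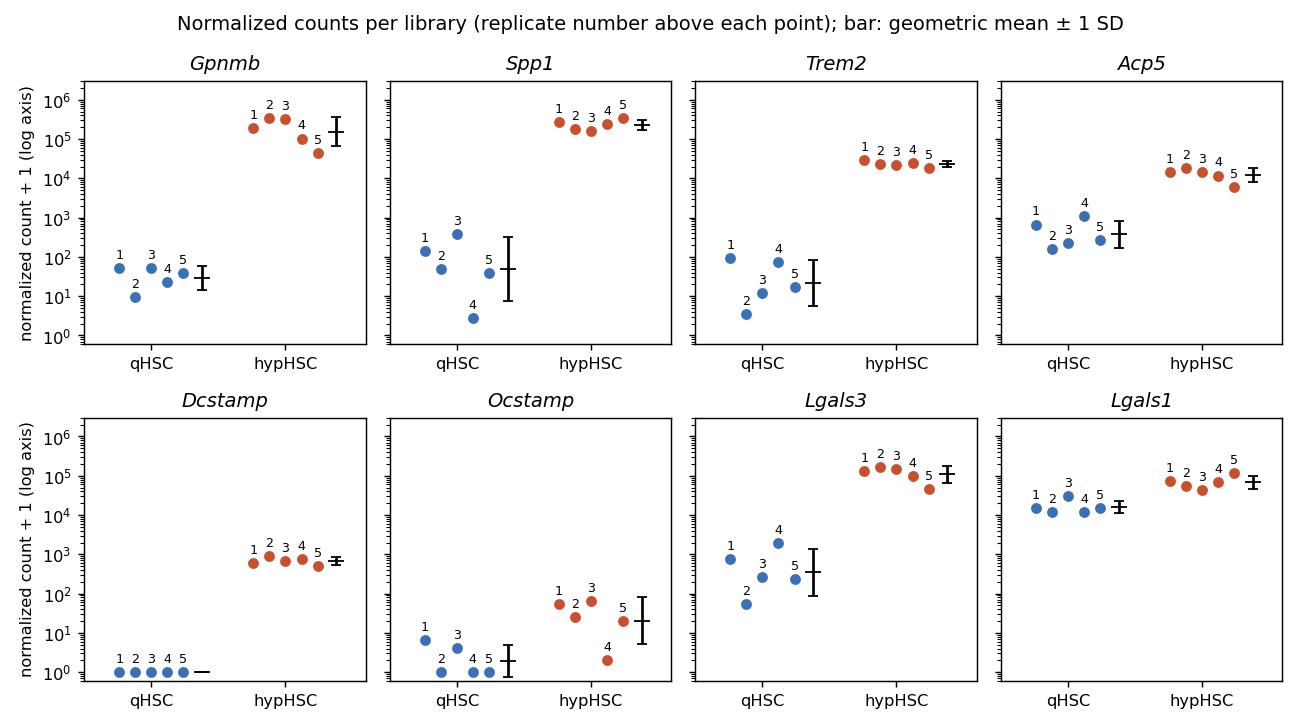
Normalized count + 1 (log axis) of each of the 8 genes in the 5 qHSC and 5 hypHSC libraries, where points are libraries with their replicate number, and bars are the geometric mean ± 1 SD. The groups are apart for 7 genes and overlap for *Ocstamp*, and all 5 qHSC libraries are at 0 for *Dcstamp*.

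*Gpnmb* (chr6:49013452-49047863, plus strand, GRCm39) is a protein-coding gene on 14 exon blocks. Its normalized count was 186374, 337161, 316364, 103226 and 43714 in hypHSC 1 to 5. In qHSC 1 to 5 it was 49.8, 8.52, 51.2, 21.4 and 38.2. hypHSC 2 and 3 were highest and hypHSC 5 lowest, yet hypHSC 5 stayed far above every qHSC library. The log2 fold change was 12.36 (SE 0.62, limma adjusted p = 1.27e-07), which placed *Gpnmb* at rank 2 of 14630 for a rise.

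*Spp1* (chr5:104582977-104588919, plus strand) had 278620, 176880, 160907, 236434 and 335921 normalized counts in hypHSC 1 to 5. It had 138, 48.6, 382, 1.71 and 39.0 in qHSC 1 to 5. Here hypHSC 5 was highest and hypHSC 3 lowest, whereas hypHSC 5 was lowest for *Gpnmb*. Among qHSCs, qHSC 3 was highest, and qHSC 4 had only 2 reads. This made a log2 fold change of 12.19 (SE 1.03, limma adjusted p = 4.37e-06), at rank 3. Without qHSC 4 it was 11.14 and without qHSC 3 it was 12.93, and DESeq2 gave 10.98.

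*Trem2* (chr17:48653423-48661175, plus strand) was the steadiest of the 8 among hypHSCs, with a coefficient of variation of 15.6%. It had 28605, 23370, 21603, 24292 and 18746 normalized counts in hypHSC 1 to 5. In qHSC 1 to 5 it had 90.5, 2.56, 11.02, 71.9 and 15.7. The highest qHSC libraries were qHSC 1 and 4, which were also highest in core macrophage markers. hypHSCs exceeded qHSCs by a log2 fold change of 10.06 (SE 0.75, limma adjusted p = 1.76e-06), at rank 8. It was 9.41 without qHSC 2 and 11.33 without qHSC 1 and 4, and DESeq2 gave 9.30.

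*Lgals3* (chr14:47611317-47623624, plus strand) had 129211, 170599, 147755, 97438 and 46358 normalized counts in hypHSC 1 to 5. It had 758, 52.8, 268, 1971 and 229 in qHSC 1 to 5. As for *Gpnmb*, hypHSC 2 and 3 were highest and hypHSC 5 lowest, and as for *Trem2*, qHSC 1 and 4 were the highest qHSCs. The log2 fold change was 8.29 (SE 0.80, limma adjusted p = 1.09e-05), at rank 41. It was 7.61 without qHSC 2, 8.91 without qHSC 4 and 9.50 without both qHSC 1 and 4, and DESeq2 gave 7.52.

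*Acp5* (chr9:22038025-22047042, minus strand) is the classical histochemical marker of osteoclasts. It had 14265, 18777, 14195, 11807 and 5961 normalized counts in hypHSC 1 to 5. In qHSC 1 to 5 it had 667, 161, 223, 1130 and 265, again highest in qHSC 1 and 4. Its log2 fold change was 5.03 (SE 0.51, limma adjusted p = 1.70e-05), at rank 424. Without qHSC 1 and 4 it was 5.84.

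The fusion genes were much lower in level. *Dcstamp* (chr15:39609326-39624334, plus strand) had 610, 893, 673, 743 and 499 normalized counts in hypHSC 1 to 5 and no read in any qHSC library. Its hypHSC mean was at least 275-fold higher than the floor of 3 reads averaged over the qHSC libraries, and its lowest hypHSC library at least 200-fold higher. Its reads carry a further limit, since 36.0% of its exon bases lie in another gene (*Gm62978*) and the counting did not use strand. *Ocstamp* (chr2:165235680-165242327, minus strand) had 52.6, 23.8, 65.7, 1.05 and 19.7 normalized counts in hypHSC 1 to 5. It had 5.43 in qHSC 1, 3.15 in qHSC 3 and 0 in the other 3. hypHSC 4 lay within the range of qHSCs, with 1 read. In an exact permutation test over libraries *Ocstamp* gave p = 0.0238, and in a limma fit of 19373 genes without the filter its log2 fold change was 3.42 (SE 1.01, adjusted p = 0.0182). It holds a stretch of 59 bases, the read length, that many other genes share, so part of its few reads is uncertain.

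*Lgals1* (chr15:78810925-78814666, plus strand) stood apart from the other 7 by its level in qHSCs. It had 72218, 54496, 44472, 69753 and 115065 normalized counts in hypHSC 1 to 5. In qHSC 1 to 5 it had 15222, 12166, 30478, 12223 and 15071. hypHSC 5 was highest and hypHSC 3 lowest, and qHSC 3 was the highest qHSC. The log2 fold change was 2.08 (SE 0.31, limma adjusted p = 0.00026), at rank 1657. Of its exon bases 30.6% are shared with *Gm30368*, which limits its counts. Sharing was taken on either strand, since the counting did not use strand. The share was 12.7% for *Spp1*, 8.75% for *Trem2* and at most 3.12% for *Gpnmb*, *Acp5*, *Ocstamp* and *Lgals3*.

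**Figure D2:**
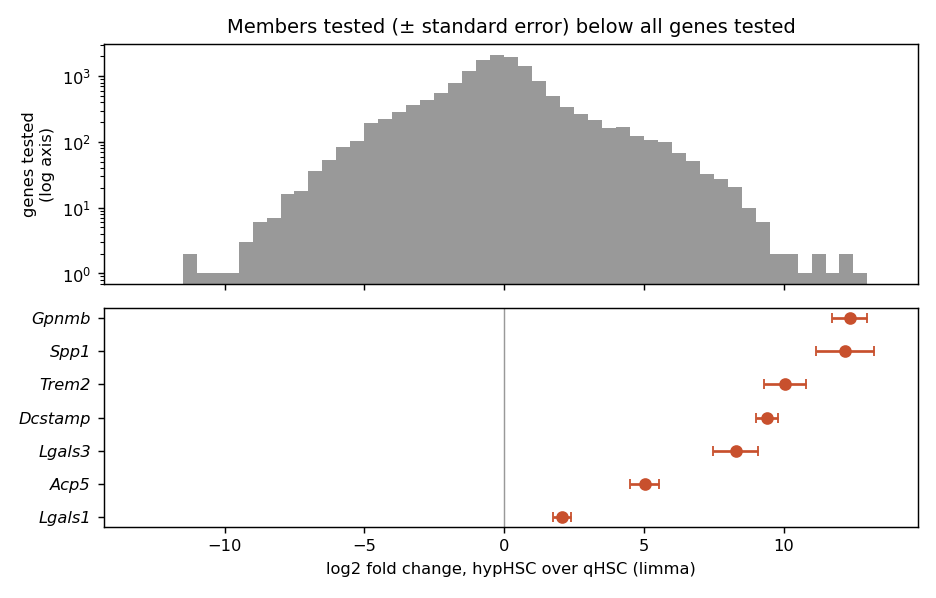
Log2 fold change of hypHSCs over qHSCs. The upper panel counts all 14630 genes tested per step (log axis), and the lower panel gives the 7 genes tested as points with their limma standard error, from 2.08 for *Lgals1* to 12.36 for *Gpnmb*.

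Levels of different genes can be compared only per exon length, as FPKM. The length used joins all annotated exons of a gene and can exceed that of its main transcript. It was 6625 bases for *Gpnmb*, 4946 for *Trem2*, 4394 for *Acp5* and 1691 for *Lgals1*. Other lengths were not tried and could change the order of genes given here. In hypHSCs the mean FPKM was highest for *Spp1* (1962 ± 444, SD, n = 5), followed by *Lgals3* (1264 ± 590), *Lgals1* (981 ± 274) and *Gpnmb* (749 ± 529). *Trem2* (113 ± 22.3) and *Acp5* (72.4 ± 29.5) came next. Neighbours in this order overlapped in their ranges over libraries, but within libraries part of the order was steady. *Gpnmb* was above *Trem2*, and *Trem2* above *Acp5*, in all 5 hypHSC libraries, whereas the pairs *Spp1* and *Lgals3*, *Lgals3* and *Lgals1*, and *Lgals1* and *Gpnmb* changed places between libraries. *Dcstamp* (5.57 ± 1.45) lay under all libraries of these 6 genes and above all libraries of *Ocstamp* (0.225 ± 0.196). In qHSCs the order was different: *Lgals1* led with 311 ± 156 FPKM, followed by *Lgals3* (8.75 ± 10.4), *Acp5* (3.42 ± 2.88), *Spp1* (1.36 ± 1.77), *Trem2* (0.238 ± 0.250), *Gpnmb* (0.157 ± 0.0894) and *Ocstamp* (0.0148 ± 0.0212). Below *Lgals1*, neighbours in that order overlapped in their ranges, and *Dcstamp* had no read.

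**Figure D3:**
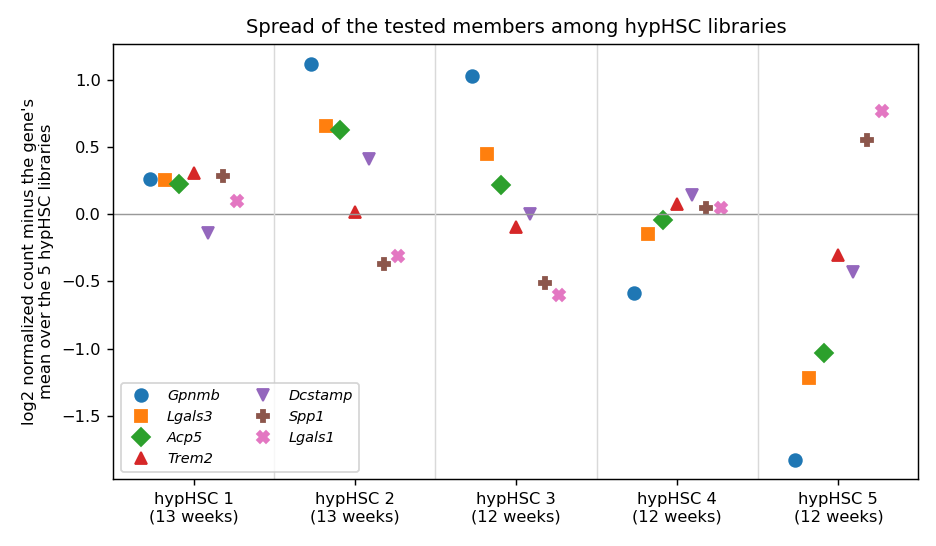
For the 7 genes tested, log2 normalized count in each hypHSC library minus the mean of the gene over the 5 hypHSC libraries, with the diet weeks of each library. In hypHSC 5, *Gpnmb*, *Lgals3*, *Acp5*, *Trem2* and *Dcstamp* have their lowest values whereas *Spp1* and *Lgals1* have their highest.

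Within hypHSCs, 5 of the 7 genes were lowest in hypHSC 5 and the other 2 were highest there. *Gpnmb* ranged over 7.71-fold, *Lgals3* over 3.68-fold, *Acp5* over 3.15-fold, *Dcstamp* over 1.79-fold and *Trem2* over 1.53-fold, with the lowest value of each in hypHSC 5. *Spp1* ranged over 2.09-fold and *Lgals1* over 2.59-fold, with the highest value in hypHSC 5. The ratio of *Spp1* to *Gpnmb* FPKM was accordingly 3.48, 1.22, 1.19, 5.34 and 17.9 in hypHSC 1 to 5. For *Gpnmb*, hypHSC 3 after 12 weeks was close to hypHSC 2 after 13 weeks. Between 13 and 12 weeks (2 against 3 hypHSC libraries) none of the 7 genes was called by limma, DESeq2 or edgeR, and 0.00684% of all genes tested were called by limma. By limma 0 of the 7 had an unadjusted p under 0.05. The largest difference was that of *Gpnmb*, 1.15 on the log2 scale (SE 0.86, limma adjusted p = 0.525). It was 1.90 without hypHSC 3 (limma adjusted p = 0.111), 0.73 without hypHSC 2 and 0.47 without hypHSC 5.

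Ratios within a library do not depend on how libraries are scaled, and 6 could be tested with over 3 reads of each gene in every library. The ratio of *Lgals3* to *Lgals1* FPKM had a geometric mean of 1.17 in hypHSCs and 0.0158 in qHSCs, a log2 difference of 6.21 (SE 1.08, exact permutation p = 0.00794, adjusted p = 0.0119 over the 6 ratios). In the opposite direction, *Acp5* to *Gpnmb* was 0.118 in hypHSCs and 19.9 in qHSCs (log2 difference -7.40, SE 0.69, exact permutation adjusted p = 0.0119). With these exon lengths *Acp5* was thus the more abundant of the pair in all qHSC libraries and the less abundant in all hypHSC libraries.

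The genes were also set against the geometric mean FPKM of 11 core macrophage markers in the same library, leaving out *Itgam*. Of the 11, *Mertk* rose least (1.73, SE 0.23). Among qHSCs it was highest in qHSC 2 (1247 normalized counts), where the summed core macrophage markers were lowest. Ratios without *Mertk* were not tried, although its small rise lowers that of this geometric mean. *Gpnmb* stood at 5.71 times this mean in hypHSCs and 0.0217 times in qHSCs (log2 difference 8.04, SE 0.88, exact permutation adjusted p = 0.0119). In qHSCs *Gpnmb* had 10 to 65 reads per library. Its p-values, here and for *Acp5* to *Gpnmb*, describe it and are no support. *Lgals3* stood at 11.4 and 0.762 times (3.91, SE 0.33, exact permutation adjusted p = 0.0119). For both genes the groups did not overlap, so their rise exceeded that of this geometric mean. It need not exceed that of each marker. The largest single rises among the core markers were *Itgam*, left out, at 7.45 (SE 1.02) and *Lyz2* at 7.21 (SE 0.72). That of *Lgals3*, 8.29 (SE 0.80), was near these. *Acp5* followed the markers most closely, at 0.676 and 0.433 times (0.64, SE 0.27, exact permutation adjusted p = 0.0476), and its groups overlapped. That call was lost without any of the 5 hypHSC libraries, qHSC 1 or qHSC 3, each left out alone (adjusted p from 0.0571 to 0.105), and without both qHSC 1 and 4 the difference was 0.25 (exact permutation adjusted p = 0.143). *Lgals1* stood at 9.75 and 48.2 times (-2.31, SE 0.97, exact permutation adjusted p = 0.0714), which did not pass. Without qHSC 4, where its ratio was 7.52, it passed (-2.98, exact permutation adjusted p = 0.0286). *Spp1*, *Trem2*, *Dcstamp* and *Ocstamp* had too few reads in some qHSC library for this test.

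**Figure D4:**
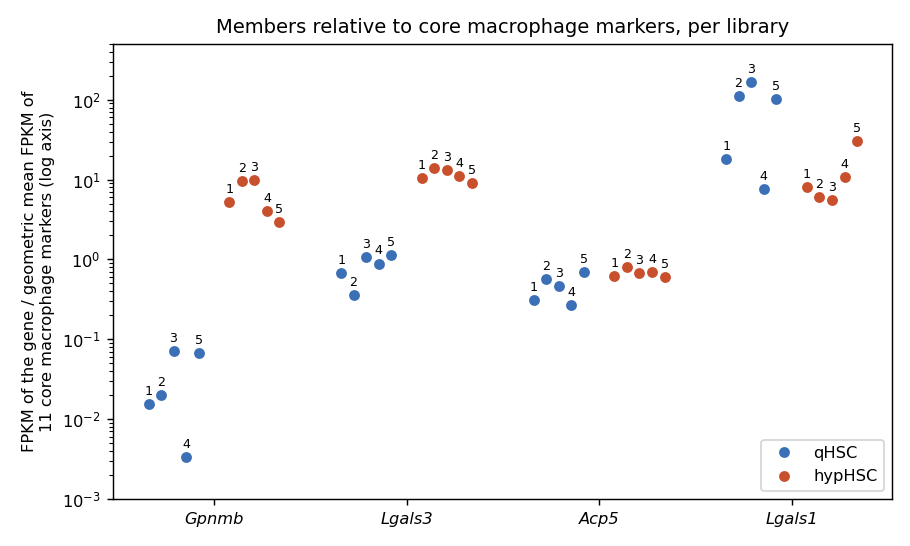
FPKM of *Gpnmb*, *Lgals3*, *Acp5* and *Lgals1* divided by the geometric mean FPKM of 11 core macrophage markers in the same library (log axis), where points are libraries with their replicate number. The hypHSC and qHSC libraries are apart for *Gpnmb* and *Lgals3* and overlap for *Acp5* and *Lgals1*.

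Other genes of the same programmes were followed as lists drawn from general knowledge. Over all genes tested the median log2 fold change was -0.20. Of 16 further lipid-associated macrophage genes, 14 were higher, none was lower and the median was 4.48. The largest rises were those of *Mmp12*, macrophage elastase (11.74, SE 0.47, limma adjusted p = 3.89e-08), of the fatty acid transporter *Cd36* (10.05, SE 1.05) and of the fatty acid binding protein *Fabp5* (8.89, SE 0.50). *Ctsl*, a cathepsin, differed by 0.99 and missed the fold threshold, and *Apoe*, a lipoprotein ligand of TREM2, differed by 0.29 (SE 0.68, limma adjusted p = 0.746). Of 10 tested genes of the TREM2 family, its adaptors, sheddases, ligand *Apoe* and downstream signalling, 9 were higher, and the remaining gene was again *Apoe*. The 9 included *Tyrobp* (5.30, SE 0.76), the alternative adaptor *Hcst* (5.57, SE 1.17) and the kinase *Syk* (5.82, SE 0.92). The largest rise was that of *Treml2* (5.98, SE 0.73), which had 0 to 4.28 normalized counts in qHSCs. *Trem1* and *Treml1* fell under the filter.

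Osteoclast genes were mixed. Of 14 tested, 10 were higher, 1 was lower and the median was 2.74, and without qHSC 1 and 4, or with 12 diet weeks only, 7 were higher. Without hypHSC 5, 2 were lower. *Atp6v0d2*, a subunit of the vacuolar proton pump, had 15616 to 17973 normalized counts in hypHSCs and 0 to 11.02 in qHSCs (log2 fold change 12.60, SE 0.60, limma adjusted p = 9.95e-08). *Tnfrsf11a*, the receptor RANK, rose by 6.01 (SE 0.57), the transcription factor *Prdm1* by 4.49 (SE 0.53), the receptor *Csf1r*, also among the core macrophage markers, by 3.78 (SE 1.01) and *Ctsk*, the collagen-degrading cathepsin K, by 2.63 (SE 0.33). *Itgb3*, the β3 integrin chain of osteoclasts and platelets, was lower, from a mean of 337 normalized counts in qHSCs to 7.41 in hypHSCs (log2 fold change -5.81, SE 0.84, limma adjusted p = 0.000183). The regulator *Nfatc1* (-1.05, SE 1.39), the kinase *Src* (-2.84, SE 1.20) and the adaptor *Traf6* (-0.48, SE 0.18) were not called. *Mmp9*, *Calcr*, *Oscar*, *Siglec15* and *Jdp2* fell under the filter, and of these *Mmp9*, a gelatinase, had the highest mean, 55.0 normalized counts in hypHSCs.

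The MITF and TFE factors, transcription factors of lysosomal genes, were all 4 higher: *Tfec* by 4.86 (SE 0.85), *Mitf* by 3.75 (SE 0.81), *Tfeb* by 3.01 (SE 0.55) and *Tfe3* by 1.21 (SE 0.31). With libraries scaled to the same total or to reference genes, or with 12 diet weeks only, 3 of the 4 were called. Of 8 tested receptors of osteopontin and relatives, 4 were higher and 2 lower. This count leaves out *Itgb3*, a direct partner too, which was counted among the osteoclast genes and was lower (-5.81, SE 0.84). *Itga4* (4.14, SE 0.57), *Cd44* (3.01, SE 0.58), *Itga5* (2.14, SE 0.59) and *Itgav* (1.15, SE 0.23) rose, *Itga8* (-2.71, SE 0.71) and *Itga9* (-2.52, SE 0.33) fell, and *Itgb1* (-0.95) and *Itgb5* (0.62) were not called. The other bone phosphoproteins *Ibsp*, *Dspp* and *Mepe* were at 0 in all libraries, and *Dmp1* had 36.4 normalized counts in hypHSC 1 and 0 elsewhere. Of the 4 partners and relatives of GPNMB, *Cd44* and *Itga5* were higher, while *Pmel* (-0.87) and *Sdc4* (-0.77) were not called.

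The other galectins and the galectin ligand *Lgals3bp* did not share the rise of *Lgals3* and *Lgals1*. Of their 6 entries tested none was higher and 4 were lower, with a median of -2.09. *Lgalsl* (-2.92, SE 0.26), the joint entry of *Lgals4* and *Lgals6* (-2.68, SE 0.34), the galectin ligand *Lgals3bp* (-1.95, SE 0.42) and *Lgals9* (-1.89, SE 0.42) fell. *Lgals2* (-2.23, SE 0.89) and *Lgals8* (-0.66, SE 0.15) were not called, and *Lgals7* and *Lgals12* did not pass the filter.

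**Figure D5:**
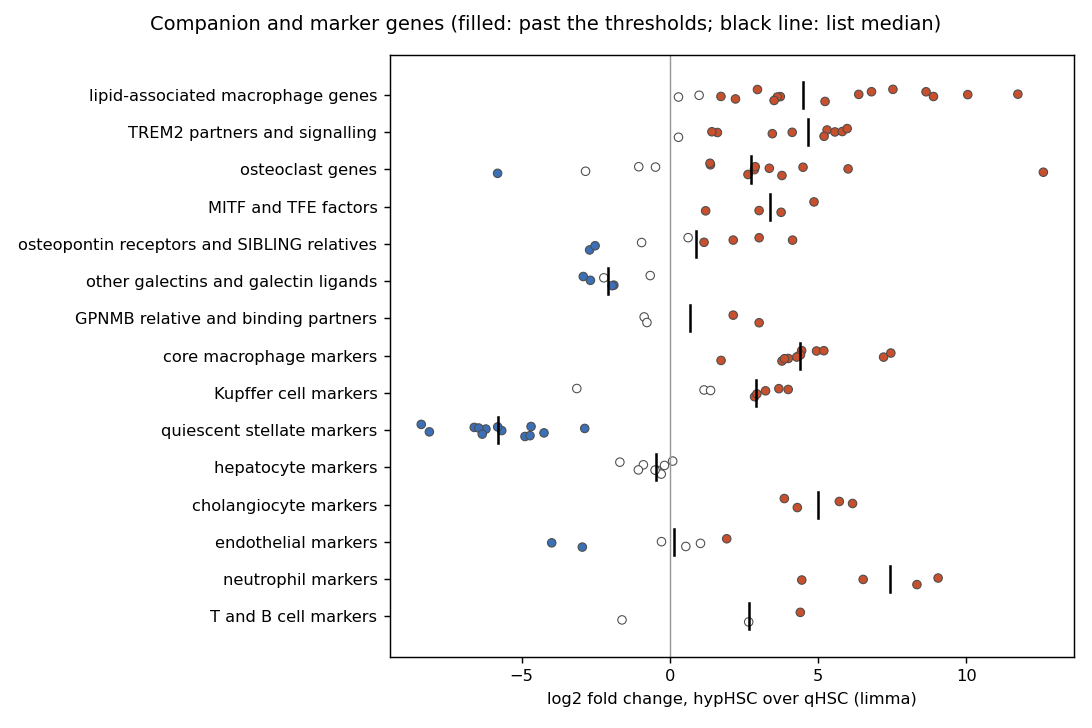
Log2 fold change of hypHSCs over qHSCs for each gene tested in the companion and marker lists, where filled points pass the thresholds (higher in red, lower in blue), open points do not and the black line is the median of the list. Core macrophage markers lie above 0 and quiescent stellate markers below it, and hepatocyte markers are all open.

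Markers of other cells were read beside these genes. Of 8 Kupffer cell markers, 5 were higher and 3 not called, and the summed level in qHSC 1 (21267) and qHSC 4 (51464) was near the 23439 to 50505 of hypHSCs, against 1360 to 2194 in the other qHSCs. The 4 tested neutrophil markers were all higher (summed 1861 to 8040 in hypHSCs, 5.25 to 389 in qHSCs), as were the 4 tested cholangiocyte markers (536 to 3217 against 6.29 to 59.8). None of the 8 hepatocyte markers was called. Endothelial markers gave 1 higher and 2 lower of 6, and T and B cell markers 1 higher of 3. The part of these cells in the results was not tested.

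For each gene tested, the genes with the most similar profile were those with the smallest root mean square difference of centred log2 values over the 10 libraries. *Gpnmb* was nearest to *Syngr1* (0.996), *Mmp12* (1.097) and *Atp6v0d2* (1.14), and *Spp1* to *Npy* (1.76), *S100a4* (1.78) and *Mmp12* (1.80). *Trem2* was nearest to *Cd36* (0.98), *Atp8b4* (1.05) and *Lgals3* (1.06), and *Lgals3* to *Lyz1* (0.65), *Clec7a* (0.68) and *Lyz2* (0.71). *Acp5* had closer neighbours in *Plekho1* (0.21), *Lpxn* (0.24) and *Hmox1* (0.29), and so had *Lgals1* in *Vim* (0.23), *Kif20b* (0.28) and *Nampt* (0.30). *Dcstamp* was nearest to *Uchl1* (0.65), *Tmem171* (0.72) and *Ptchd1* (0.74). These distances describe the 10 libraries and are dominated by the difference between the groups.

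The stretches before the start of *Trem2* and *Gpnmb* are printed because both genes encode cell surface proteins and were among the largest rises, and they were chosen after their values were seen. Each is the 250 bases before the canonical transcript start (GRCm39, GENCODE), 5′ to 3′, and capitals mark motif matches on either strand.
Trem2, chr17:48653179-48653428, + strand: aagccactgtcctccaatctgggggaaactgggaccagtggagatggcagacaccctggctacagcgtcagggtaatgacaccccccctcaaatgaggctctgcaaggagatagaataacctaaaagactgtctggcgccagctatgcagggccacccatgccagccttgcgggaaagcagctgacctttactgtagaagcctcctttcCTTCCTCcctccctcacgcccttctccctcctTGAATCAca
Gpnmb, chr6:49013176-49013425, + strand: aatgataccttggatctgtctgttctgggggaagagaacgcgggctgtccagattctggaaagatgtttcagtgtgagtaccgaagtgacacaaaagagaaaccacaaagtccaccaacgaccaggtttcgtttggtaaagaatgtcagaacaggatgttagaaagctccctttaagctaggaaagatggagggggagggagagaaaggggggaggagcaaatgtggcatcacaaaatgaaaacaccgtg
Motifs were searched on both strands as exact letters. GAGGAAG stood for PU.1, TATAAA for the TATA box, and CACGTG or CATGTG for the E-box of MITF and TFE factors. For AP-1, TGANTCA with any base at N was searched, a loose form of the site, and this base is A in the *Trem2* match. With windows at canonical starts, PU.1 matched in *Trem2* and *Ocstamp* (2 of 8, against 10.3% of 21738 promoters), AP-1 in *Trem2* alone (6.18%), the E-box in *Spp1* alone (16.2%) and the TATA box in *Lgals1* alone (11.9%). With windows at the 5′ end of each entry of the expression table, PU.1 matched in *Spp1*, *Trem2* and *Ocstamp* (10.8% of 23181), AP-1 in *Dcstamp* alone (6.08%), the E-box in none of the 8 (16.4%) and the TATA box in *Spp1* and *Lgals1* (10.9%). The matches thus depend on where the start is set, and the AP-1 letters of *Trem2* end 3 bases before its canonical start. A match describes letters and not a bound site.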

How the data were processed

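Bulk RNA-seq was analysed in 10 libraries, 5 of hypHSCs and 5 of qHSCs, grouped by their labels. The deposited unit is signal, a normalized count for each gene: per the methods and labels, the authors mapped paired reads of 59 bases to mm39 with STAR, counted them without strand using featureCounts (Subread 1.5.0), and divided the counts by DESeq2 size factors. Whole reads were recovered for 100% of values (within 0.005 normalized counts) and served for depth, FPKM on joined GENCODE exon lengths, DESeq2 1.42.0 and edgeR 4.0.16.

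Of 62322 entries, the 25233 with a symbol were used. Values were compared as log2(normalized count + 1) with limma 3.58.1 (R 4.3.3, trend), adjusted by Benjamini-Hochberg over 14630 genes. These fold changes are differences of mean log2 values, so where qHSC values are low and uneven they can exceed the fold of the group means. The 13 against 12 week contrast was fitted with 3 groups. Exact tests used the 252 arrangements of 5 libraries against 5. Only the limma fit of hypHSCs against qHSCs was tried on simulated counts, and the other steps were not.

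The 8 genes, the lists and the tests were chosen with earlier results of these data known. Named genes are the 8 members, per companion list the 3 largest called changes, genes not called or under the filter, and direct partners, and the 3 nearest profiles of each member. Other genes named in passing serve as examples. Promoter windows were set in 2 ways, at canonical transcript starts and at table entries, and both are given. The choice of the printed windows was made after the matches had been seen: the canonical windows of *Trem2* and *Gpnmb* hold no exon base, whereas those of *Acp5* and *Lgals3* do. Alternatives changed the pseudocount, filter, scaling, test, block, entries and libraries.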

Additional observations from a re-analysis of the deposited data

Results flagged for a closer look

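In groups of 5 libraries, the gap of the most distant library to its neighbour was compared with the range of the group (Dixon, critical value 0.71). The values were normalized counts and ratios without a log, whereas limma and the exact tests used log2 values. Of 27 groups tested 3 passed, where chance alone gives about 1 in 20 for normal and independent groups. These groups share genes and libraries, and the rule was not tried on log2 values. *Lgals1* had 30478 normalized counts in qHSC 3, above the other qHSCs. The ratio of *Lgals3* to *Lgals1* FPKM was 0.118 in qHSC 4, the highest of the qHSCs. The ratio of *Lgals1* to core macrophage markers was 30.4 in hypHSC 5, the highest of the hypHSCs.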

How the results depend on the processing

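The 7 genes tested kept their direction and call under all 26 alternatives, leaving out each library, hypHSC 4 and 5 together, or qHSC 1 and 4 together included (the last 2 were chosen after seeing the data). Leaving out 1 library moved the log2 fold change of *Spp1* to 11.14 to 12.93, of *Trem2* to 9.41 to 10.58 and of *Lgals3* to 7.61 to 8.91, and edgeR gave 10.98, 9.29 and 7.51. The log2 fold change of *Lgals1* was lowest, 1.14 (limma adjusted p = 0.0352), when libraries were scaled to *Hprt*, *Pgk1* and *Actb*. That scaling moved the median of all genes by -0.93 and the share of calls that were higher from 45.0% to 17.4%. Scaling to the same total moved them by -0.35 and to 32.4%. The 7 lower calls among companion genes became 11 with the same total and 14 with the reference genes, and the 41 higher calls became 37 and 34, and 36 with 12 diet weeks only. With the replicate number as a block, 5786 genes were called against 5779, all 7 genes remained called, and lower osteoclast genes went from 1 to 2. Deviations of same-numbered libraries correlated at 0.00815 to 0.129, and those of differently numbered libraries at -0.132 to 0.155. These values cannot decide whether the numbers pair the libraries. The log2 difference of *Acp5* to macrophage markers, 0.64, was 0.61 with 12 diet weeks only (exact permutation adjusted p = 0.193), 0.47 to 0.82 when each library was left out, and 0.25 without qHSC 1 and 4. For *Lgals1* to these markers, -2.31 became -2.98 to -1.86 when each was left out, and -3.67 without qHSC 1 and 4 (exact permutation adjusted p = 0.0214). The cause of these shifts was not tested. Depth limits *Ocstamp*, and *Spp1* and *Trem2* in qHSCs.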
